A study of Mus musculus with 24 samples.

Results

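The circadian clock output genes described here are Dbp, Tef, Per2, Per3, Nr1d1, Nr1d2, Cry2, Ciart, Bhlhe41 and Npas2. They were chosen by gene symbol as a named set, with earlier results of these data known. They are 10 of the 18314 genes listed, and all 10 were abundant enough to be tested. The study induced fatty liver by diet in male C57BL/6 mice, wild type by genotype, and gave HQHF (Huatanqushihuoxue Formula, a herbal preparation) by gavage. Total RNA of whole liver was sequenced after removal of ribosomal RNA, with 4 libraries per group as labelled. Mice labelled HFD plus HQHF had the high-fat diet (HFD) and HQHF, HFD mice had the high-fat diet alone, and control mice had a normal diet. HQHF followed 12 weeks of the high-fat diet in a study of 9 mice per group. The dose of HQHF behind these libraries, the age of the mice and any gavage of the other groups were not found in the labels. The time of day at which livers were collected is not given either, so group and time of collection cannot be told apart in any comparison below.

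The mammalian clock is a loop of transcription that runs about once a day in nearly every cell. BMAL1 pairs with CLOCK or with its close relative NPAS2, binds E-box sequences and switches on the Per, Cry, Nr1d, Ciart and Bhlhe41 genes and the output factors Dbp and Tef. The PER and CRY proteins then hold BMAL1 and its partner back, while the nuclear receptors REV-ERBα (Nr1d1) and REV-ERBβ (Nr1d2) hold Bmal1 and Npas2 down through RORE sequences. In mouse liver Npas2 and Bmal1 therefore peak roughly opposite to Dbp, Per3 and the Nr1d genes, and the loop also follows feeding times. Levels of these genes swing widely over a day.

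Promoter sequence is shown for 4 of these genes, because their motifs differ and because results below turn on these genes. RefSeq promoters (mouse build GRCm38.p6; the study's own build is GRCm39) were found for 9 of the 10 genes. The 250 bases before the start site were searched on both strands for the E-box CACGTG, the E'-box CACGTT, the D-boxes TTATGTAA and TTACGTAA (bound by DBP and TEF) and the RORE letters TAGGTCA and TGGGTCA; these motifs do not share letters at any site. Ciart lies on the minus strand at chr3:95882229-95882478, Bhlhe41 on the minus strand at chr6:145865421-145865670, Per3 on the minus strand at chr4:151044666-151044915 and Npas2 on the plus strand at chr1:39194022-39194271. Capitals mark E-boxes in Ciart and Bhlhe41 and D-boxes in Per3; Npas2 has no match in this window.
Ciart: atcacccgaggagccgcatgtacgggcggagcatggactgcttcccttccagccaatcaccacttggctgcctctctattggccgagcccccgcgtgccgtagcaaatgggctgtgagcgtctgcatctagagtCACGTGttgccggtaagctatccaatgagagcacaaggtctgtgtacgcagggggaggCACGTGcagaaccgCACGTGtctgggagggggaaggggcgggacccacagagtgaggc
Bhlhe41: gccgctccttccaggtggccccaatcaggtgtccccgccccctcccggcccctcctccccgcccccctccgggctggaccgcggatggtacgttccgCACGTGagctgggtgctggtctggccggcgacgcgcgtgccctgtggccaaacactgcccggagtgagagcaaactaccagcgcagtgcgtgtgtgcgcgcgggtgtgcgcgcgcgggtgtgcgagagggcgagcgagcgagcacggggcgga
Per3: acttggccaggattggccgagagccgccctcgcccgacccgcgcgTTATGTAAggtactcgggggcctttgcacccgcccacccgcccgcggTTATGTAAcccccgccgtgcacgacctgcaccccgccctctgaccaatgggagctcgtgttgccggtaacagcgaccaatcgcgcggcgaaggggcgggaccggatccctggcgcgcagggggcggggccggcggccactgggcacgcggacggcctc
Npas2: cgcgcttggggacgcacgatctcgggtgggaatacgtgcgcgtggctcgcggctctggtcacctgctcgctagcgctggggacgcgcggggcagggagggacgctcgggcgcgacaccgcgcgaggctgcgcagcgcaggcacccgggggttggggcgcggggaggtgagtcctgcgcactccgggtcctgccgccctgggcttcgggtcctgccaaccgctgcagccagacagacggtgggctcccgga
The Ciart window holds 3 E-boxes; at least 3 occur in 0.0609% and at least 1 in 6.02% of the 32851 RefSeq promoters searched. The Per3 window holds 2 D-boxes, a number reached by 0.0213% of promoters, against 0.931% with at least 1. Bhlhe41 has 1 E-box, and each of the 2 start sites of Tef has 1. Nr1d1 and Cry2 have 1 E'-box each, a motif found in 3.85% of promoters. The windows of Dbp, Nr1d2 and Npas2 hold none of these letters, and the RORE letters (5.38% of promoters) are in none of the 9. A match describes the letters only.

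**Figure D1:**
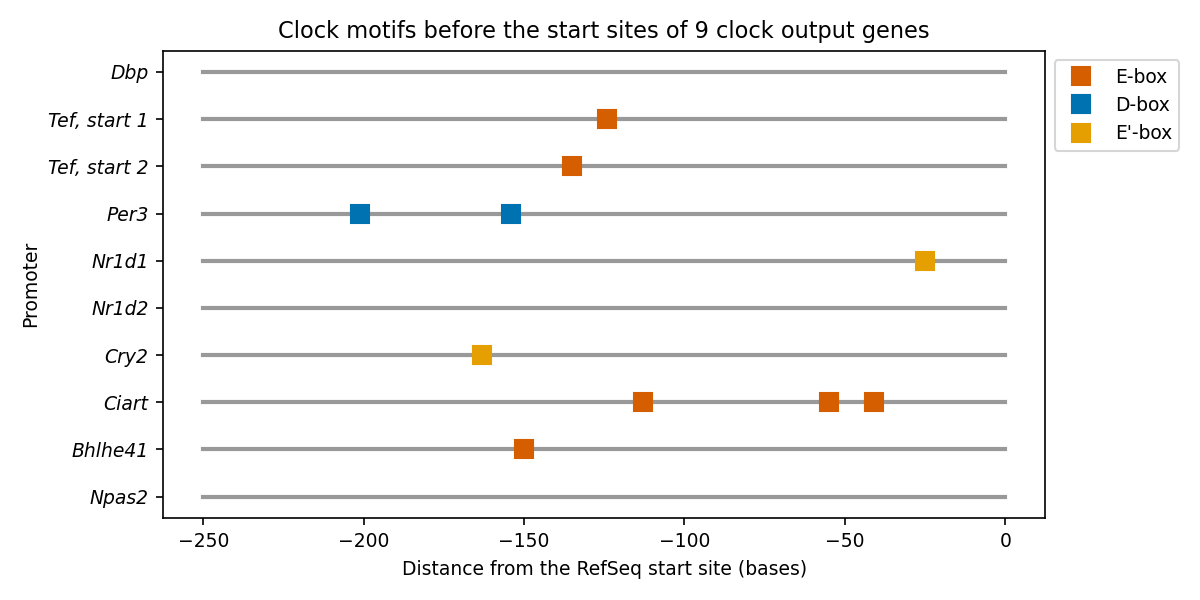
Clock motifs in the 250 bases before the RefSeq start sites of 9 clock output genes (Tef has 2 start sites); the horizontal axis is the distance from the start site in bases, and each mark is 1 match on either strand. Ciart carries 3 E-boxes and Per3 2 D-boxes.

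Total counts ran from 36198931 to 46454404 in the 10 libraries used for all comparisons (3 HFD plus HQHF, 4 HFD and 3 control). HFD plus HQHF 3 and control 2 were left out because they are almost devoid of hepatocyte RNA. The summed level of 6 hepatocyte markers in them was 7.43 and 49.9 CPM by library totals (read counts scaled to a common library size), against 46962 to 111883 CPM in the others. Each library is 1 mouse with its own batch code, so no batch term could be fitted and the p-values measure the spread between these mice. Values below are CPM scaled by TMM, a correction for differences in RNA composition; a CPM compares libraries for 1 gene and not genes with each other. In whole liver, fewer cells of a type and less RNA per cell cannot be told apart. Dbp, Per2, Per3, Nr1d1, Cry2, Ciart and Npas2 overlap another annotated gene (Sphk2 for Dbp, Thra for Nr1d1, Uts2 for Per3), and the strand setting of the counting is not given, so some of their reads could belong to the neighbour.

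Of the 10 clock output genes, 3 were higher in HFD livers than in control livers and none was lower. These were the output factor Dbp and the repressors Ciart and Bhlhe41. The test was edgeR's quasi-likelihood test with Benjamini-Hochberg adjustment over 13832 genes, and a gene was called at an adjusted p under 0.05. By the same test 26.2% of all genes were called, 16.3% as higher and 9.89% as lower, so 3 of 10 is close to the background. The fold change was above 0 on the log2 scale for 9 of the 10 genes, with Npas2 the exception, and their median log2 fold change was 0.69, against 0.06 for all genes tested. At an unadjusted p under 0.05, 5 of the 10 passed, beside 40.9% of all genes.

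Dbp (ENSMUSG00000059824) encodes a PAR bZIP factor, the archetypal clock output of the liver, which drives rhythmic metabolic genes through D-boxes. It stood at 16.1, 5.29, 23.7 and 34.4 CPM in HFD livers 1 to 4, against 1.16, 1.36 and 3.55 CPM in control livers 1, 3 and 4. The groups did not overlap, although HFD 2 came close to the control livers. Its log2 fold change was 3.31 ± 0.77 (SE), with an edgeR adjusted p of 0.016. Without control 1 or control 3 the call was lost (log2 fold changes 3.02 and 3.01; edgeR adjusted p = 0.0648 and 0.0658). Tef (ENSMUSG00000022389), which encodes a PAR bZIP relative of DBP, had 52.1, 44.4, 79.9 and 88.4 CPM in HFD livers, against 49.5, 58.1 and 59.0 CPM in control livers. HFD 1 lay within the control range, HFD 2 below it and HFD 3 and HFD 4 above it. Its log2 fold change was 0.25 ± 0.31 (edgeR adjusted p = 0.576).

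Among the repressors, Bhlhe41 (ENSMUSG00000030256), which encodes DEC2, a basic helix-loop-helix factor that competes for E-boxes, had 3.12, 1.25, 6.76 and 4.68 CPM in HFD livers, against 0.762, 0.154 and 0.698 CPM in control livers. All 4 HFD livers were above all 3 control livers. Its log2 fold change was 2.88 ± 0.63 (edgeR adjusted p = 0.0113), and Bhlhe41 was called in every fit of the 10 libraries that left out 1 library. Cell type markers, summed on the same TMM scale, moved with this comparison. The sum of 5 recruited macrophage markers was 80.0 to 243 CPM in HFD livers, against 1.90 to 4.36 CPM in control livers, with no marker at 0. That sum was 4.38 to 5.94 CPM in HFD plus HQHF livers, while Bhlhe41 was at 3.04, 4.67 and 2.98 CPM there. The sum of the 6 hepatocyte markers was 33149 to 69758 CPM in HFD livers, against 91638 to 125435 CPM in control livers. By library totals the hepatocyte sums overlapped, at 46962 to 87388 CPM in HFD livers and 79216 to 111883 CPM in control livers. Single libraries also stood apart. HFD 3, the highest liver for Bhlhe41, had sums of 233 CPM for 6 adipocyte markers and 60.1 CPM for 3 brown fat markers, and without HFD 3 the log2 fold change of Bhlhe41 was 2.50 (edgeR adjusted p = 0.014). The sum of 4 cholangiocyte markers was 60.7 and 65.7 CPM in HFD 1 and HFD 4, against 7.995 to 10.2 CPM in control livers. The sum of 5 pancreatic acinar markers was 1934 CPM in control 1 and at most 18.2 CPM in the other 9 libraries. The part of these markers in the clock values was not tested.

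Ciart (ENSMUSG00000038550), which encodes CHRONO, a repressor of BMAL1 with CLOCK, is the gene with 3 E-boxes above. It had 1.11, 0.643, 1.08 and 4.93 CPM in HFD livers, against 0.630, 0.333 and 0.190 CPM in control livers. The groups did not overlap, but HFD 2 (35 reads) and control 1 (24 reads) nearly touched, and HFD 4 (287 reads) stood far above the rest. The log2 fold change of 2.32 ± 0.73 (edgeR adjusted p = 0.039) became 1.28 ± 0.46 without HFD 4 (adjusted p = 0.0736). The call was also lost on leaving out any control library or any HFD plus HQHF library, with adjusted p between 0.0535 and 0.12, and control livers held only 6 to 24 Ciart reads.

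The period genes encode proteins that bring the CRY repressors to the nucleus. Per3 (ENSMUSG00000028957) had 3.62, 2.11, 5.41 and 9.71 CPM in HFD livers, against 1.58, 1.64 and 2.48 CPM in control livers, and HFD 2 lay inside the control range. Per2 (ENSMUSG00000055866) had 6.48, 6.69, 10.5 and 17.7 CPM in HFD livers, against 6.22, 5.41 and 6.19 CPM in control livers, without overlap but with HFD 1 and HFD 2 close to control. Neither passed the edgeR test, with log2 fold changes of 1.46 ± 0.64 for Per3 (adjusted p = 0.114) and 0.80 ± 0.41 for Per2 (adjusted p = 0.169). Cry2 (ENSMUSG00000068742), a cryptochrome that blocks BMAL1 with CLOCK, had 21.5, 17.6, 15.6 and 25.3 CPM in HFD livers, against 17.5, 17.1 and 17.6 CPM in control livers. Its values in HFD livers lay on both sides of a very narrow control range, and the log2 fold change was 0.20 ± 0.17 (edgeR adjusted p = 0.384).

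The REV-ERB genes did not pass the test either. Nr1d2 (ENSMUSG00000021775) had 45.9, 33.0, 48.1 and 44.8 CPM in HFD livers, against 25.2, 31.6 and 29.1 CPM in control livers. The groups did not overlap, and HFD 2 was again the lowest of its group. Its log2 fold change was 0.59 ± 0.24 (edgeR adjusted p = 0.0872). Nr1d1 (ENSMUSG00000020889) had 115, 42.2, 63.2 and 91.9 CPM in HFD livers, against 33.0, 43.3 and 89.2 CPM in control livers, with broad overlap and a log2 fold change of 0.50 ± 0.45 (edgeR adjusted p = 0.436).

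Npas2 (ENSMUSG00000026077), the activator of the set, had 2.47, 4.94, 1.59 and 3.87 CPM in HFD livers, against 4.20, 2.998 and 2.60 CPM in control livers. The HFD values lay on both sides of the control values. Its log2 fold change was -0.02 ± 0.75 (edgeR adjusted p = 0.984), and the error leaves room for a sizeable change either way. By ranges alone, 5 of the 10 genes (Dbp, Per2, Nr1d2, Ciart and Bhlhe41) had every HFD liver above every control liver, beside 36.7% of all genes without overlap in either direction.

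**Figure D2:**
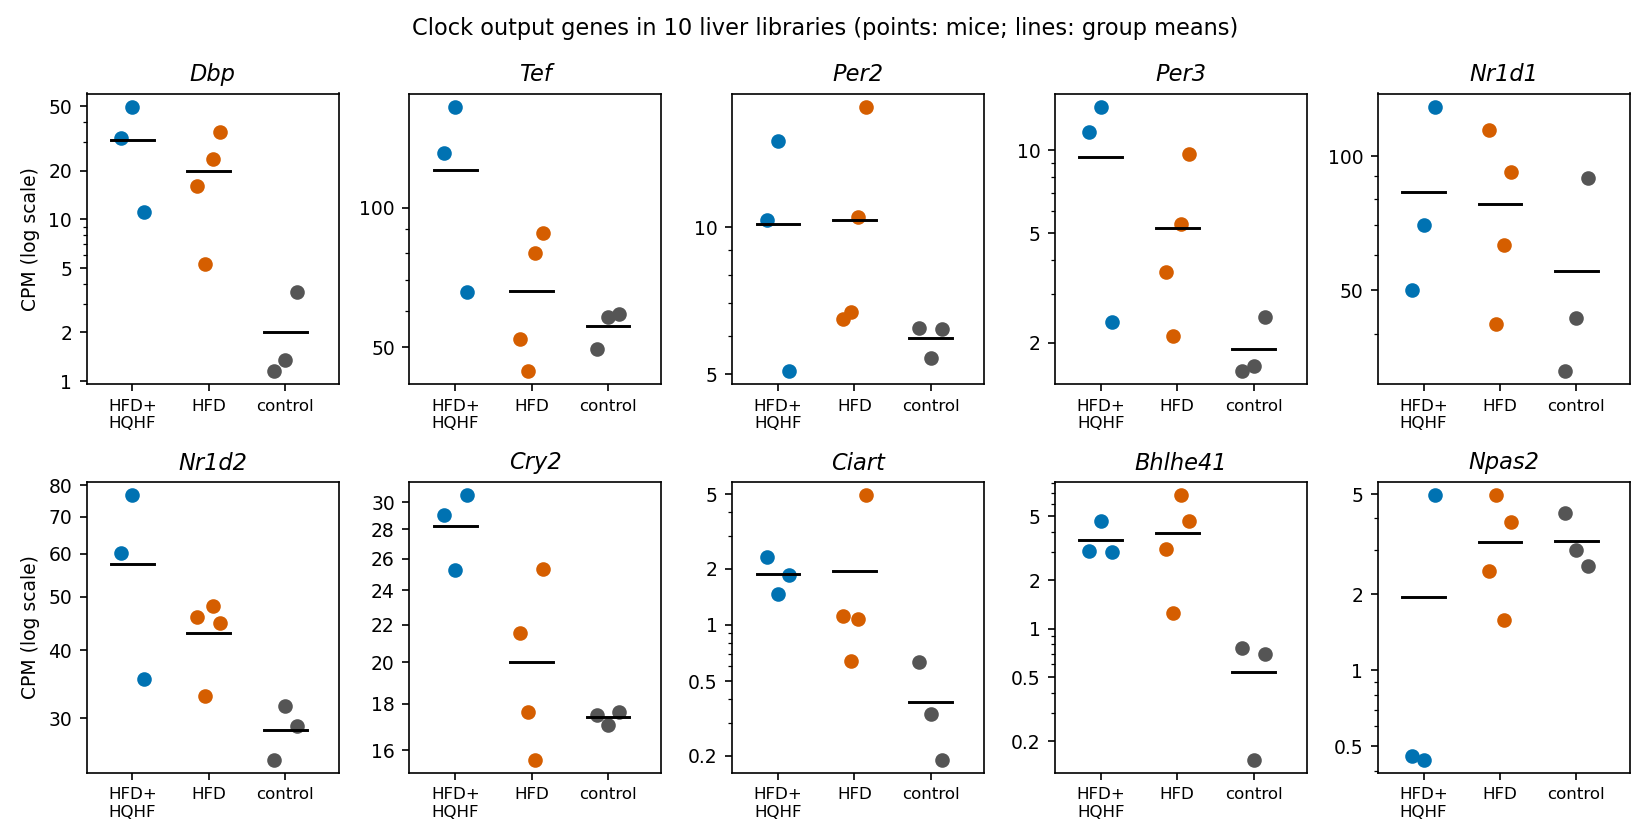
Level of each clock output gene in CPM (log scale) in HFD plus HQHF (3 mice), HFD (4 mice) and control (3 mice) livers; points are mice in the order of their numbers and lines are group means. Dbp and Bhlhe41 separate HFD from control livers, and Npas2 splits the HFD plus HQHF livers into 2 low points near 0.45 CPM and 1 high point at 4.94 CPM.

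None of the 10 clock output genes was called in HFD plus HQHF livers against HFD livers, beside 18.9% of all genes by the same edgeR test (7.85% higher and 11.1% lower). At an unadjusted p under 0.05, 2 of the 10 passed (Tef and Cry2), beside 36.1% of all genes. The fold change was above 0 for 6 of the 10, and the median log2 fold change was 0.26, against -0.07 for all genes. None of the 10 separated these groups without overlap, whereas 30.7% of all genes did.

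Cry2 and Tef had the smallest p-values. Cry2 stood at 29.0, 25.2 and 30.5 CPM in HFD plus HQHF livers 1, 2 and 4, against the 15.6 to 25.3 CPM of HFD livers given above, so that only HFD 4 reached the lower edge of the HFD plus HQHF livers. Its fold change on the log2 scale was 0.50 ± 0.16 (edgeR adjusted p = 0.0555), and DESeq2 called it (adjusted p = 0.0192). DESeq2 called 28.1% of all genes in this comparison. Tef stood at 131, 165 and 65.9 CPM in HFD plus HQHF livers, against 44.4 to 88.4 CPM in HFD livers. HFD plus HQHF 1 and 2 were above all HFD livers and HFD plus HQHF 4 was among them, with a log2 fold change of 0.87 ± 0.31 (edgeR adjusted p = 0.0697; DESeq2 adjusted p = 0.0217).

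Dbp, Per3, Per2 and Nr1d2 split the HFD plus HQHF livers in the same way as Tef. Dbp stood at 31.9, 49.7 and 11.1 CPM in HFD plus HQHF livers 1, 2 and 4, a log2 fold change of 0.63 ± 0.65 against HFD livers (edgeR adjusted p = 0.517). Per3 stood at 11.6, 14.4 and 2.38 CPM in HFD plus HQHF livers (log2 fold change 0.86 ± 0.59; edgeR adjusted p = 0.325), and Per2 at 10.4, 15.05 and 5.07 CPM (log2 fold change -0.02 ± 0.40; edgeR adjusted p = 0.973). Nr1d2 stood at 60.3, 76.7 and 35.5 CPM in HFD plus HQHF livers (log2 fold change 0.42 ± 0.23; edgeR adjusted p = 0.216). In each of these 4 genes HFD plus HQHF 2 was the highest and HFD plus HQHF 4 the lowest of the group. Nr1d1 was highest in HFD plus HQHF 4, with 50.0, 70.1 and 129 CPM in HFD plus HQHF livers 1, 2 and 4, and its log2 fold change against HFD livers was 0.09 ± 0.45 (edgeR adjusted p = 0.903). Ciart (2.30, 1.46 and 1.86 CPM) and Bhlhe41 were even within the HFD plus HQHF livers, with log2 fold changes of -0.06 ± 0.65 and -0.15 ± 0.55 against HFD livers (edgeR adjusted p = 0.961 and 0.87).

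Npas2 split the HFD plus HQHF livers most. It stood at 0.459 and 0.443 CPM in HFD plus HQHF 1 and 2 (16 and 17 reads) and at 4.94 CPM in HFD plus HQHF 4 (189 reads), against 1.59 to 4.94 CPM in HFD livers (81 to 269 reads). HFD plus HQHF 1 and 2 were below every HFD and control liver, and HFD plus HQHF 4 was level with the highest HFD liver. The log2 fold change was -0.72 ± 0.77 (edgeR adjusted p = 0.535). Without HFD plus HQHF 4 it was -2.82 ± 0.51 (adjusted p = 0.0173), and Tef and Nr1d2 were then called as higher, with log2 fold changes of 1.17 ± 0.26 and 0.68 ± 0.18 (edgeR adjusted p = 0.0261 and 0.0403). Those 3 calls rest on 2 HFD plus HQHF mice, in a fit that called 12% of all genes in this comparison.

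HFD plus HQHF livers against control livers gave no called gene at all, 0% of the 13832 genes, by edgeR's quasi-likelihood test. At an unadjusted p under 0.05 there were 1008 genes, or 7.29%, and 7 of the 10 clock output genes were among them. DESeq2's Wald test called 72 genes (0.521%), and 4 of these were clock output genes, all higher (Dbp, Per3, Nr1d2 and Bhlhe41). The fold change was above 0 for 9 of the 10, Npas2 again being the exception, and the median log2 fold change was 1.06, against 0.02 for all genes. Every HFD plus HQHF liver was above every control liver in 6 of the 10 (Dbp, Tef, Nr1d2, Cry2, Ciart and Bhlhe41), beside 15.1% of all genes without overlap in either direction. Calls among these genes against control thus depended on the test. The genes were chosen with earlier results of these data known. Their counts and median beside those of all genes are therefore a description only.

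The sizes against control were large for Dbp, at 30.9 ± 19.3 CPM in HFD plus HQHF livers and 2.02 ± 1.33 CPM in control livers (SD, n = 3 each). Its log2 fold change was 3.95 ± 0.81 (edgeR adjusted p = 0.44; DESeq2 adjusted p = 0.000663). Bhlhe41 averaged 3.56 ± 0.957 CPM in HFD plus HQHF livers and 0.538 ± 0.334 CPM in control livers (SD, n = 3 each), with a log2 fold change of 2.73 ± 0.65 (edgeR adjusted p = 0.464). The remaining log2 fold changes against control were 2.32 ± 0.68 for Per3, 2.26 ± 0.76 for Ciart, 1.12 ± 0.34 for Tef, 0.77 ± 0.43 for Per2, 1.00 ± 0.25 for Nr1d2, 0.70 ± 0.18 for Cry2 and 0.59 ± 0.48 for Nr1d1, with edgeR adjusted p between 0.464 and 0.817. Cry2 varied little within groups, at 28.3 ± 2.73 CPM in HFD plus HQHF livers and 17.4 ± 0.286 CPM in control livers (SD, n = 3 each). Npas2 averaged 1.95 ± 2.59 CPM in HFD plus HQHF livers and 3.27 ± 0.833 CPM in control livers (SD, n = 3 each), with a log2 fold change of -0.74 ± 0.82 (edgeR adjusted p = 0.869). HFD livers serve in 2 of the 3 comparisons and control livers in 2, so the comparisons share samples.

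**Figure D3:**
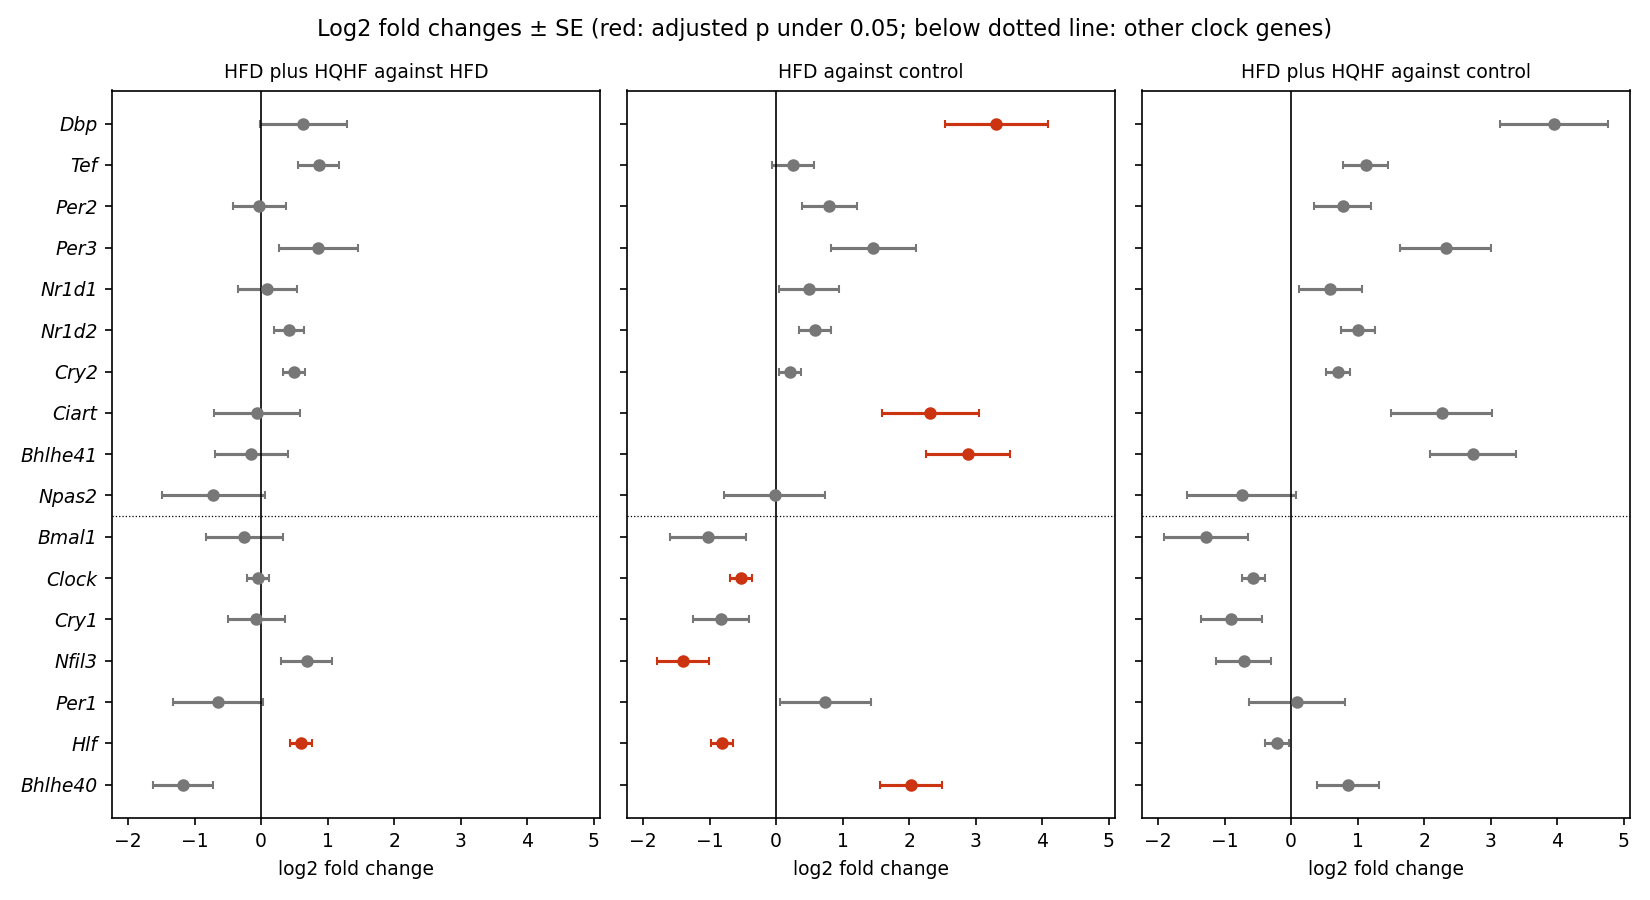
Log2 fold change of each clock output gene (above the dotted line) and of other clock genes (below it) in the 3 comparisons, with SE bars from the edgeR fit of 10 libraries; red marks an adjusted p under 0.05. Dbp (3.31), Bhlhe41 (2.88) and Ciart (2.32) are the called clock output genes, all in HFD against control.

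Npas2 was set against the other 9 genes in each liver. The value used was the log2 CPM of Npas2 minus the mean log2 CPM of the other 9. With 1 sample per mouse and no collection time, it does not measure the phase of the clock. In HFD plus HQHF 1 and 2 it rests on 16 and 17 Npas2 reads. Only differences between libraries in this value carry meaning. It was -5.23, -5.55 and -1.32 in HFD plus HQHF livers 1, 2 and 4, then -2.34, -0.59, -3.21 and -2.50 in HFD livers 1 to 4, and -0.38, -0.65 and -1.34 in control livers 1, 3 and 4. HFD plus HQHF 1 and 2 were the lowest of all 10, below every HFD liver by a wide margin, while HFD plus HQHF 4 lay within the range of the control livers. HFD 2 also lay within it, and the other 3 HFD livers were below them. The group means were -4.04 ± 2.35 in HFD plus HQHF livers (SD, n = 3), -2.16 ± 1.11 in HFD livers (SD, n = 4) and -0.79 ± 0.49 in control livers (SD, n = 3). HFD plus HQHF livers differed by -1.88 from HFD livers and by -3.24 from control livers, and HFD livers by -1.37 from control livers. These differences are a description without a test, and the -1.88 was -3.24 without HFD plus HQHF 4 and -1.12 without HFD plus HQHF 2.

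**Figure D4:**
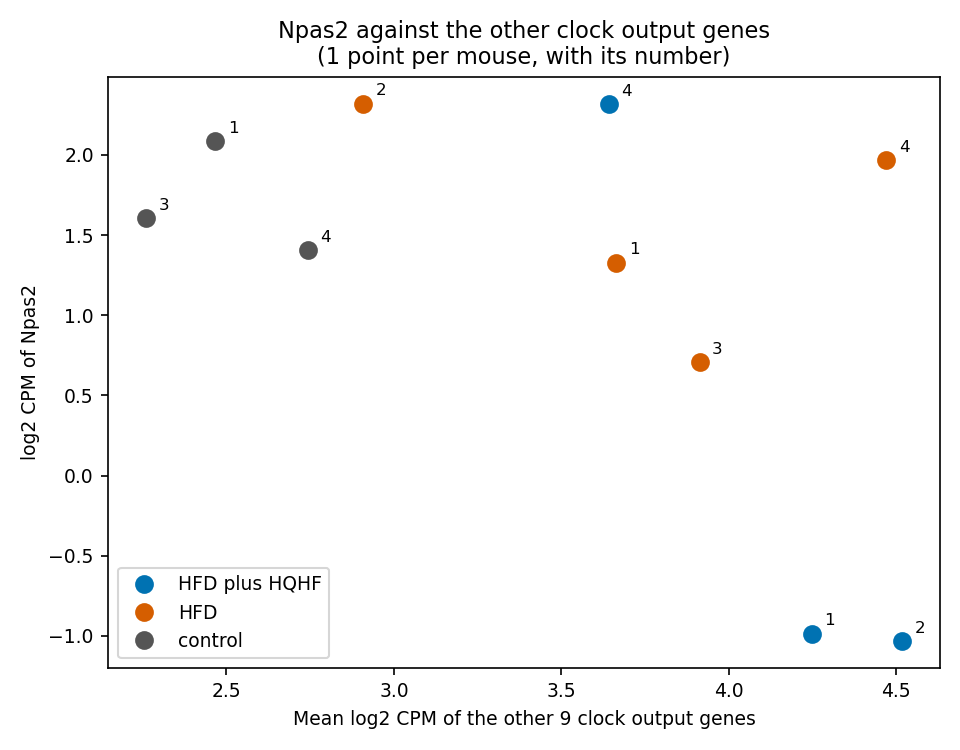
Log2 CPM of Npas2 against the mean log2 CPM of the other 9 clock output genes, 1 numbered point per mouse, coloured by group. HFD plus HQHF 1 and 2 lie far below the rest (Npas2 minus the others -5.23 and -5.55), whereas HFD plus HQHF 4 (-1.32) and HFD 2 (-0.59) lie near the control livers.

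Mice of 1 group differed from each other in these genes more than they did in most genes. The within-group SD of log2 CPM had a median of 0.80 over the 10 clock output genes, against 0.31 over all genes tested, and 9 of the 10 were above that median. Npas2 (1.14), Dbp (1.07), Per3 (0.98), Bhlhe41 (0.93) and Ciart (0.92) were above the 90th percentile of all genes. Ciart, Bhlhe41 and Npas2 had low counts, whose part in the spread was not tested. Cry2 was the exception, with an SD of 0.22 at the 27.3 percentile. The highest and lowest HFD plus HQHF livers differed 11.1-fold in Npas2 and 6.05-fold in Per3, and the HFD livers differed 6.50-fold in Dbp. The same libraries recurred at the ends: HFD 2 was the lowest HFD liver in 7 of the 9 genes other than Npas2 and HFD 4 the highest in 6, and HFD plus HQHF 4 was the lowest of its group in 6 and HFD plus HQHF 2 the highest in 6.

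Npas2 was also compared within groups with 15 clock genes, and the largest correlations were with Nr1d2 and Bmal1. Across the 10 livers, after the group means were removed, Npas2 correlated with Nr1d2 at Pearson r = -0.92 (p = 0.00463 by permutation within groups, 864 permutations; adjusted p = 0.0694 over 15 relations) and Spearman rho = -0.85 (permutation p = 0.015; adjusted p = 0.112). With Bmal1 the values were Pearson r = 0.91 (permutation p = 0.0116; adjusted p = 0.087) and Spearman rho = 0.92 (permutation p = 0.00579; adjusted p = 0.0868). Without the 2 livers farthest from the median of Npas2 (HFD plus HQHF 2 and HFD plus HQHF 4), r was -0.77 for Nr1d2 and 0.79 for Bmal1 (n = 8). The group means were not recomputed, so HFD plus HQHF 1 kept a deviation set partly by the removed livers. These values therefore cannot show whether the relations hold without HFD plus HQHF 4. No relation of the 15 passed the adjustment. Among the other clock output genes r was -0.79 for Tef, -0.78 for Per3, -0.68 for Dbp, -0.58 for Per2 (-0.07 without the same 2 livers) and -0.30 for Bhlhe41, and it was above 0 for Cry2 (0.39), Nr1d1 (0.29) and Ciart (0.12).

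Of 15 other clock genes, 2 were higher and 3 lower in HFD livers than in control livers, 2 were higher and 1 lower in HFD plus HQHF livers than in HFD livers, and none was called in HFD plus HQHF against control (2 had an unadjusted p under 0.05). The calls compare with 26.2% of all genes in HFD against control and 18.9% in HFD plus HQHF against HFD. Their median log2 fold changes were -0.11, -0.07 and 0.17, against 0.06, -0.07 and 0.02 for all genes. Hlf, the third PAR bZIP factor beside Dbp and Tef, fell in HFD livers, at 20.2, 25.1, 30.2 and 25.5 CPM in HFD livers, against 42.5, 43.6 and 47.3 CPM in control livers. This was opposite to Dbp, with a log2 fold change of -0.82 ± 0.17 (edgeR adjusted p = 0.00847). Hlf was at 33.8, 47.5 and 33.4 CPM in HFD plus HQHF livers, higher than in HFD livers (log2 fold change 0.60 ± 0.17; edgeR adjusted p = 0.0335). Nfil3, a repressor that competes with the PAR bZIP factors for D-boxes, fell to 33.1, 35.8, 14.4 and 11.7 CPM in HFD livers, against 81.5, 50.5 and 56.0 CPM in control livers (log2 fold change -1.40 ± 0.39; edgeR adjusted p = 0.0262). Some cell type markers given above differ in the same comparison. The TMM-scaled sums of 4 stellate cell markers overlapped, at 310 to 667 CPM in HFD livers and 262 to 359 CPM in control livers. By library totals these sums did not overlap, at 439 to 836 CPM and 226 to 320 CPM. The part of these markers was not tested.

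Among the activators, Clock was lower in HFD livers and Bmal1 did not pass the test. Clock, which encodes the usual partner of BMAL1, fell to 50.1, 55.4, 65.7 and 49.6 CPM in HFD livers, against 86.0, 88.1 and 64.2 CPM in control livers (log2 fold change -0.53 ± 0.16; edgeR adjusted p = 0.0365). HFD 3 overlapped control 4. Bmal1 had 13.0, 20.5, 6.59 and 9.27 CPM in HFD livers, against 33.1, 26.1 and 16.1 CPM in control livers, a log2 fold change of -1.02 ± 0.57 (edgeR adjusted p = 0.21). Bmal1 in HFD plus HQHF livers 1, 2 and 4 stood at 5.54, 4.15 and 21.4 CPM, low in the same 2 livers as Npas2, with log2 fold changes of -0.25 ± 0.58 against HFD livers and -1.27 ± 0.63 against control livers (edgeR adjusted p = 0.788 and 0.702).

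Cry1 and Per1 did not pass in any comparison. Cry1, the other cryptochrome, had 8.84, 13.0, 2.63 and 5.43 CPM in HFD livers, against 16.3, 13.6 and 9.96 CPM in control livers (log2 fold change -0.83 ± 0.42; edgeR adjusted p = 0.167). Per1, a period gene that also answers to glucocorticoids, had 19.5, 22.0, 12.1 and 68.0 CPM in HFD livers, against 13.5, 16.6 and 24.6 CPM in control livers (log2 fold change 0.74 ± 0.68; edgeR adjusted p = 0.45). HFD 4 was the highest of all 10 livers for Per1.

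Csnk1e, which encodes casein kinase 1 epsilon, a kinase that marks PER proteins for breakdown, rose in HFD livers to 10.5 ± 2.92 CPM (SD, n = 4), against 4.93 ± 0.354 CPM in control livers (SD, n = 3). The log2 fold change was 1.08 ± 0.22 (edgeR adjusted p = 0.00782), and Csnk1e was lower in HFD plus HQHF livers than in HFD livers (-0.86 ± 0.22; edgeR adjusted p = 0.0227). Bhlhe40, the paralogue of Bhlhe41, is named after its values were seen: it had 109, 214, 41.6 and 106 CPM in HFD livers, against 26.8, 27.7 and 32.3 CPM in control livers (log2 fold change 2.02 ± 0.46; edgeR adjusted p = 0.0139). It stood at 46.5, 72.1 and 38.2 CPM in HFD plus HQHF livers, and its difference from HFD livers did not pass (-1.17 ± 0.45; edgeR adjusted p = 0.0882).

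**Figure D5:**
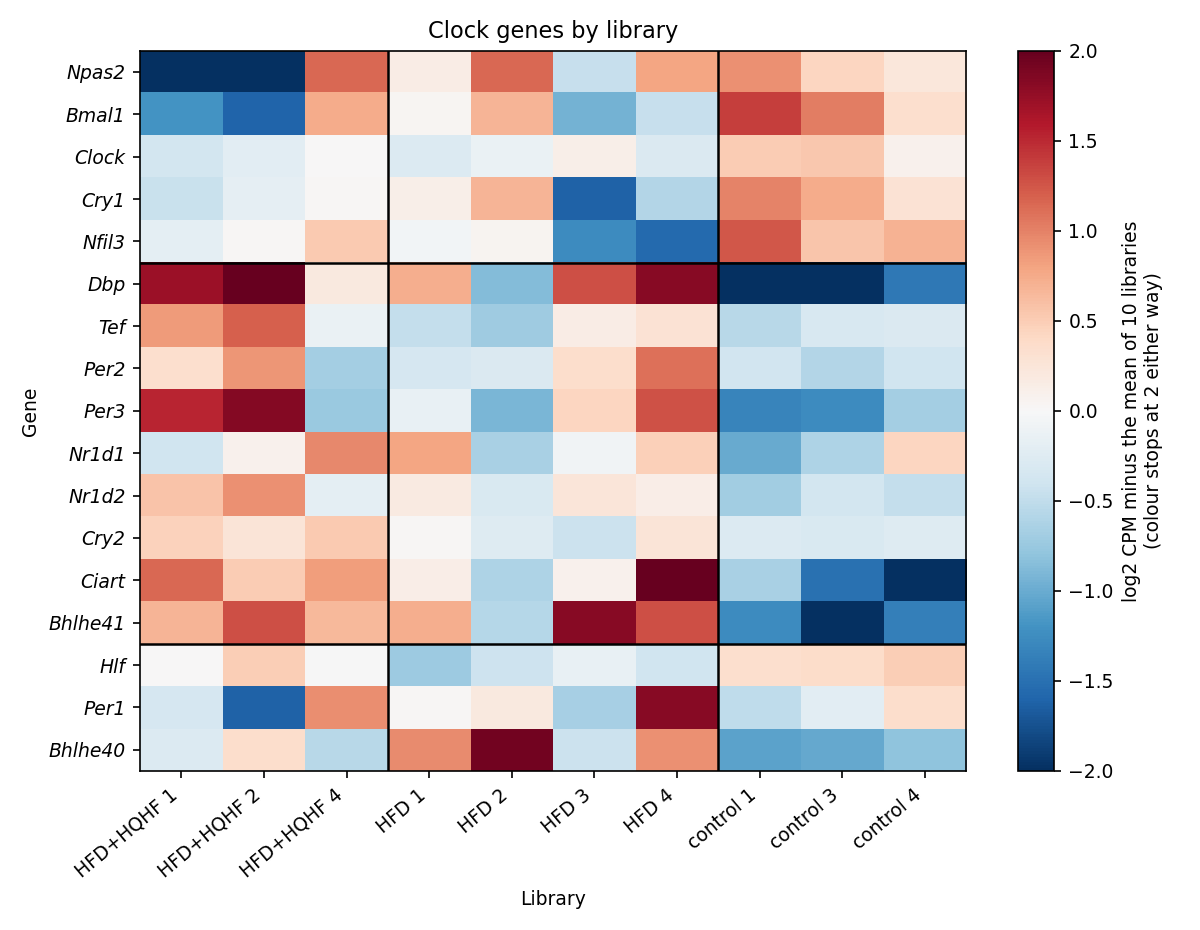
Level of the clock output genes and other clock genes in each of the 10 livers, as log2 CPM minus the mean of the 10; colours stop at 2 either way. HFD plus HQHF 1 and 2 share low Npas2 and Bmal1 (Bmal1 at 5.54 and 4.15 CPM) and high Dbp, and the 3 control livers share low Dbp.

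Of 11 genes known to cycle in mouse liver downstream of the clock, none was higher and 3 were lower in HFD livers than in control livers, with a median log2 fold change of -0.29. HFD plus HQHF against HFD gave 2 higher and none lower (median 0.48), and HFD plus HQHF against control gave none called (2 at an unadjusted p under 0.05). Both counts are near the 26.2% and 18.9% of all genes called in those comparisons. Nr1i3, which encodes the xenobiotic receptor CAR, fell in HFD livers (log2 fold change -1.21 ± 0.28; edgeR adjusted p = 0.0135) and was higher in HFD plus HQHF livers than in HFD livers (1.33 ± 0.28; edgeR adjusted p = 0.0132). Por, which encodes the electron donor of cytochromes P450, fell in HFD livers (-1.26 ± 0.40; edgeR adjusted p = 0.0404) and was higher in HFD plus HQHF livers than in HFD livers (1.35 ± 0.40; edgeR adjusted p = 0.0399). Nr1i3 and Por are known to depend on the PAR bZIP factors in mouse liver. Of these factors, Dbp rose and Hlf fell in HFD livers. Tef did not pass the test there (log2 fold change 0.25 ± 0.31, edgeR adjusted p = 0.576). The part of these factors in the levels of Nr1i3 and Por was not tested.

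Systemic cues that set the liver clock were read from 4 lists, to be set beside the same 26.2% and 18.9% of all genes. None of 8 glucocorticoid-responsive genes was called in any comparison, and 1, 0 and 0 of them had an unadjusted p under 0.05 in the order of the comparisons above. Of 7 genes raised by fasting, 2 had a log2 fold change above 0 in HFD against control and 4 in HFD plus HQHF against HFD. Fgf21 went opposite to most of the list in both, at 0.72 ± 0.65 and -1.81 ± 0.68 (edgeR adjusted p = 0.438 and 0.0863). Pdk4 (-0.90 ± 0.49) and Ppargc1a (-0.15 ± 0.41) were also below 0 in HFD plus HQHF against HFD. By calls, 4 of the 7 fell in HFD livers against control, and 3 were higher in HFD plus HQHF livers than in HFD livers. G6pc, the last enzyme of glucose output, led both (log2 fold changes -2.06 ± 0.21 and 1.41 ± 0.21; edgeR adjusted p = 0.000646 and 0.00387), followed by Angptl4, an inhibitor of lipoprotein lipase (-1.83 ± 0.32 and 1.21 ± 0.32; edgeR adjusted p = 0.00522 and 0.0274). Of 6 genes raised by feeding, 2 rose in HFD livers (Srebf1, a master regulator of fat synthesis, 2.75 ± 0.73, and Acly, which makes cytosolic acetyl-CoA, 0.73 ± 0.23; edgeR adjusted p = 0.0251 and 0.0397). Relative to HFD livers, 3 of the 6 were lower in HFD plus HQHF livers, among them Acly (-0.88 ± 0.23, edgeR adjusted p = 0.0268). Another was Pnpla3, a lipid droplet protein (-2.15 ± 0.63, edgeR adjusted p = 0.0382). Pnpla3 had only 2 to 7 reads in HFD plus HQHF livers and 12 to 50 reads in HFD livers. Of 8 temperature-responsive genes, 4 fell in HFD livers, led by the chaperone genes Hspa8 (-1.08 ± 0.20) and Dnajb1 (-1.04 ± 0.21, edgeR adjusted p = 0.00645 and 0.0078). In that comparison 2 of the 8 had a log2 fold change above 0 and were not called. These were Cirbp (0.805 ± 0.445) and Rbm3 (0.15 ± 0.43, edgeR adjusted p = 0.201 and 0.826). Hspa8 was higher in HFD plus HQHF livers than in HFD livers (0.92 ± 0.20; edgeR adjusted p = 0.0149), and Hspa1a was lower (-2.91 ± 0.89; edgeR adjusted p = 0.0449). Hspa1a had only 3 to 18 reads in HFD plus HQHF livers and 32 to 296 reads in HFD livers. No gene of the fasting, feeding and temperature lists was called in HFD plus HQHF against control (2, 0 and 3 had an unadjusted p under 0.05). The part of these cues in the clock values was not tested.

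The genes whose levels followed Dbp most closely over the 10 livers, among 11666 genes with at least 1 CPM on average, were Parp11 (Pearson r = 0.94), Afap1l1 (0.93), Maff (0.92) and Vamp5 (0.92). Those closest to Npas2 were Cdkn1a (Pearson r = 0.97), Vcl (0.96), Prrc2c (0.96) and Srrm2 (0.95). Their Spearman rho with Npas2 was 0.92, 0.85, 0.75 and 0.85 in that order. The clock output genes themselves were left out of this ranking, so it does not show how closely they followed each other. None of the 15 other clock genes was among these 8. Cdkn1a, which encodes the cell cycle inhibitor p21, stood at 1.90, 1.33 and 51.3 CPM in HFD plus HQHF livers 1, 2 and 4, at 14.8, 31.7, 14.9 and 40.8 CPM in HFD livers and at 22.1, 17.7 and 17.8 CPM in control livers. Cdkn1a repeated the split of the HFD plus HQHF livers seen in Npas2. It was picked for its correlation with Npas2 over these same livers, so this split is no separate result. These correlations are descriptions over livers that share the same library scaling.

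With all 12 libraries in the fit, 7 genes (0.0503%) were called in HFD against control and none was a clock output gene; HFD plus HQHF against HFD gave 1 called gene (0.00718%), not a clock output gene either, and HFD plus HQHF against control gave none. In HFD against control Dbp then had a log2 fold change of 3.34 ± 0.65 (edgeR adjusted p = 0.109), Ciart had 2.63 ± 0.78 (edgeR adjusted p = 0.217) and Bhlhe41 2.28 ± 0.75 (edgeR adjusted p = 0.236). Scaling by library totals in place of TMM moved the all-gene median of the log2 fold change to 0.66 in HFD against control and to -0.62 in HFD plus HQHF against HFD. In HFD against control 8 of the 10 clock output genes were then called as higher, beside 52% of all genes.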

How the data were processed

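Long RNA libraries from mouse liver were made, per the labels' protocols, with a stranded total RNA kit after removal of ribosomal RNA. The submitters' processing notes name HISAT2, RSEM and the build GRCm39; the sources used here do not give their roles, versions or strand setting. The deposited table holds whole-number counts per gene, made by the authors with no normalization. Total counts per library were 33380925 to 46454404 over 12 libraries; 116 entries without a gene symbol held 0.0530 to 0.332% of the counts. Small RNA libraries of the same mice were not used here.

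The tests used edgeR 4.0.16 under R 4.3.3, with limma 3.58.1 and data.table in version 1.17.8: filterByExpr by group, TMM scaling (factors 0.763 to 1.42 in the 10 libraries), robust glmQLFit and glmQLFTest with all 3 groups in 1 fit, and Benjamini-Hochberg adjustment over the 13832 genes tested. SE is the size of the log2 fold change over the square root of F. Log2 CPM used a prior count of 2. The scripts were tested on simulated counts. Alternatives were DESeq2 1.42.0, RLE scaling, library totals, other filters, only the 2 groups compared, a replicate block, all 12 libraries and leaving out each library. Figures used Python 3.11.15 with matplotlib 3.10.9. Promoters were taken from RefSeq (GRCm38.p6).

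The clock genes, the lists and the set of 10 libraries were chosen with earlier results of these data known. All 10 clock output genes are named. Of each list, the 2 called genes with the smallest p in each comparison are named, and always Bmal1, Clock, Per1, Cry1, Nfil3 and Hlf. For Dbp and Npas2 the 4 most correlated genes outside the clock output genes, with a mean of at least 1 CPM, are named. A result that falls under this rule for the other clock genes is not reported here.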

Additional observations from a re-analysis of the deposited data

Results flagged for a closer look

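Ciart stood at 4.93 CPM in HFD 4, far from the other 3 HFD livers (1.11, 0.643 and 1.08 CPM). The gap in CPM to the nearest of them was 0.89 of the range of the group, past the 95% limit of Dixon's test for 4 samples. On the log2 scale HFD livers 1 to 4 lay at -0.33, -1.08, -0.37 and 1.78 around their mean. There the gap took up less of the range, so the flag depends on the scale. For normally spread values, chance alone gives such a library in about 1 in 20 groups. All 10 clock output genes were looked at in this way in HFD livers. HFD 4 was also the highest HFD liver for Per2, Per3, Dbp, Tef and Cry2.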

How the results depend on the processing

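Only 3 livers in a group, low counts (6 to 287 reads for Ciart) and unknown collection times limit these results. Of 540 refitted log2 fold changes of single clock output genes, 478 kept their direction and side of the threshold. Another 14 lost the call, 20 gained it and 28 changed sign. Only 3 of the 30 log2 fold changes were called in the main fit, so all 14 losses fell on those 3. Most of the 478 were values that stayed uncalled. The differences in Npas2 against the other 9 kept their sign in every refit that gave them. Without 1 library they were -1.89 to -1.02 (HFD against control), -3.24 to -1.12 (HFD plus HQHF against HFD) and -4.60 to -2.49 (HFD plus HQHF against control). Library scaling largely cancels in these differences (-1.37 in HFD against control with TMM and with RLE), so the scaling settings could hardly change them.

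The count of clock output genes called in HFD against control was 3, but 0 with all 12 libraries and 8 with library totals. It was 1 to 4 without 1 library (1, Bhlhe41, without control 1 or control 3, and 4 without HFD plus HQHF 4). Of all genes, 26.2% were called in the main fit, 0.0503% with all 12 libraries and 52% with library totals. Without control 1, control 3 or HFD plus HQHF 4 the share was 11%, 12.3% or 25.2%. In HFD plus HQHF against HFD the count was 0, but 1 with RLE scaling (Cry2) and 2 with DESeq2. It was 0 to 3 without 1 library (3 without HFD plus HQHF 4, 1 without HFD 4). Beside these counts, 18.9% of all genes were called in the main fit, 19.8% with RLE scaling and 28.1% with DESeq2. Without HFD plus HQHF 4 or HFD 4 the share was 12% or 13%. In HFD plus HQHF against control the count was 0, but 4 with DESeq2, beside 0.521% of all genes with DESeq2. With a replicate block the count was 2, 0 and 0 in the 3 comparisons, beside 20.5%, 12.4% and 0% of all genes. Over all genes tested, the deviations of same-numbered libraries correlated at -0.05 to 0.12. These correlations cannot show whether such libraries shared a time of collection that moved only a few genes. Calls over the 3 comparisons, refitted under settings added after the data were seen, were 8 for other clock genes (0 with all 12 libraries, 5 to 9 without 1 library), 5 for rhythmic outputs (0 with all 12, 3 with library totals, 2 to 7 without 1 library) and 18 for systemic cues (0 with all 12, 11 with the replicate block, 8 to 20 without 1 library). The cause was not tested; fewer libraries also test with less precision.

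Changes of sign came only in values that were not called. In HFD plus HQHF against HFD, the log2 fold change of Per2 was 0.24 with all 12 libraries, 0.018 with RLE scaling, 0.018 with DESeq2, 0.040 with only the 2 groups compared and -0.41 to 0.36 without 1 library. Ciart was at 0.028 with all 12 libraries, 0.016 with only the 2 groups, 0.16 with the replicate block and -0.35 to 0.98 without 1 library. Bhlhe41 was at 0.67 with all 12, 0.10 with the block and -0.45 to 0.24 without 1 library. Nr1d1 was at -0.45 with library totals, -0.012 with the block and -0.37 to 0.36 without 1 library. Library totals also gave -0.12 for Nr1d2 and -0.048 for Cry2. In HFD against control, Npas2 was at 0.54 with library totals, 0.014 with a filter of 1 CPM in 3 libraries and -0.30 to 0.20 without 1 library.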

Other observations

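The 2 libraries left out are labelled liver but go against that label: Alb, the main hepatocyte transcript, was at 0.743 CPM in HFD plus HQHF 3 and 46.4 CPM in control 2, and Adipoq, a fat cell transcript, at 1254 and 4543 CPM. Clock levels in them cannot be read as liver levels. By library totals, Dbp stood at 27.2 CPM in HFD plus HQHF 3 and 2.61 CPM in control 2, and Npas2 at 1.83 and 8.09 CPM. Per3 stood at 50.8 CPM in HFD plus HQHF 3 and 12.6 CPM in control 2, and Bhlhe41 at 21.3 and 2.55 CPM.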
